A study of Mus musculus with 6 samples.

Results

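The miR-29 family of the mouse lung was measured on miRNA arrays from WT mice given saline and from WT mice given bleomycin (BLM). Its members were taken by name, as the probes for mmu-miR-29a-3p, mmu-miR-29b-3p and mmu-miR-29c-3p, which are 3 of the 1963 miRNA probes on the array. All 3 were detected on all 6 arrays, whereas 275 of the 1963 probes passed the detection filter. Both groups were C57Bl6 littermates aged 8 to 10 weeks and were killed at day 21. The 3 WT-BLM mice received 1.5 U/kg of bleomycin through the trachea, and the 3 WT control mice were given only sterile saline of equal volume. BLM is a cytotoxic cancer drug that injures the lung and is widely used to induce fibrosis in mice. RNA came from whole lung tissue, with 1 mouse per array and 1 dye. The arrays of the IKBM transgenic mice were not analysed here.

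MiRNAs are short RNAs that pair with messenger RNAs, mainly through the seed near their 5′ end, and lower the output of those messages. The miR-29 family is known for targeting messages of the extracellular matrix, among them fibrillar collagens, elastin and fibrillin, and for being repressed by TGFβ in fibroblasts. It is therefore often studied in fibrotic tissue, where collagen accumulates. These statements are background and were not measured on these arrays, which hold no messenger RNA.

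The target sequences of the probes are shown because they decide what each probe can tell apart. They are written 5′ to 3′, with the seed, bases 2 to 8, in capitals.
miR-29a-3p: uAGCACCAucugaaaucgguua
miR-29b-3p: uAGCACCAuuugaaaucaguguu
miR-29c-3p: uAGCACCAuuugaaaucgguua
The seed was the same in all 3 members, and no other target on the array carried it at bases 2 to 8, so that 0.153% of the 1963 targets share it. With positions counted from 1 at the 5′ end and no gaps, miR-29c-3p differs from miR-29a-3p by C10U alone, which leaves 95.5% of the bases identical. From miR-29a-3p to miR-29b-3p the changes are C10U, G18A, U21G and A22U, and miR-29b-3p is 1 base longer, at 23 bases. A cross-reaction between the probes for miR-29a-3p and miR-29c-3p was not tested. Outside the family, the target with the fewest differences when aligned from base 1 without gaps was that of miR-7243-3p, with at least 8 over 20 bases. Shifted alignments were not compared. The bases of the seed also occurred from base 3 in the targets of miR-3065-3p and miR-3547-3p and from base 1 in that of miR-770-5p.

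All 7 mature sequences on the array from miR-29 hairpins, 3 from the 3p arm and 4 from the 5p arm, were identical to RefSeq sequences of the mouse assembly GRCm38.p6. The mature miR-29a-3p lies at chr6:31062673-31062694 on the minus strand, within Mir29a, and miR-29c-3p at chr1:195037600-195037621 on the plus strand, within Mir29c. The sequence of miR-29b-3p is found at 2 sites, chr6:31063025-31063047 on the minus strand within Mir29b-1 and chr1:195037091-195037113 on the plus strand within Mir29b-2. Its probe therefore sums the products of both genes. The genes form 2 pairs. Mir29a and Mir29b-1 are separated by 275 bases, and no other gene of the RefSeq table overlaps that stretch. Mir29b-2 and Mir29c are separated by 426 bases within the span of A330023F24Rik, a long non-coding RNA gene. The hairpins are shown with the 3p arm in capitals, since both arms of each hairpin were on the array.
Mir29a: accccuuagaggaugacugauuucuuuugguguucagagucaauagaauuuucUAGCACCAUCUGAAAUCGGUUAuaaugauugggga
Mir29b-1: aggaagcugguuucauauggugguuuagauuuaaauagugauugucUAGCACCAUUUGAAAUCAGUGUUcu
Mir29b-2: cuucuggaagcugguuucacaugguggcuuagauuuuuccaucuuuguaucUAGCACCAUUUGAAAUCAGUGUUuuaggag
Mir29c: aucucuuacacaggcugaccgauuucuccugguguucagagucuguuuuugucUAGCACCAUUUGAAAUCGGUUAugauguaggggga

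Each probe occupied 2 spots per array. The spot intensities are given in arbitrary units above the median of the 800 empty spots of the same array, and a probe was called detected where the mean of its spots exceeded that median by 3 times the SD of the empty spots. WT mouse 3 had the array with the largest SD of empty spots, 59.3, followed by WT-BLM mouse 1 with 45.2, and the remaining arrays had 8.01 to 18.1. On the array of WT mouse 3 the tested probes were also dimmer, at a median of 129 above the empty spots, against 224 to 282 on the others. The mean signal of the miR-29 members was 8.19 to 589 times the detection limit of its array, so that detection did not limit their measurement. The arrays are 3 mice per group, and this number sets the precision of every comparison. With 3 mice on each side, the smallest two-sided p that exact permutation allows is 0.10.

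With the mice of a group in the order 1, 2, 3, the first spot of miR-29a-3p read 12101, 13269 and 7150 above the empty spots in WT mice. It read 10419, 14225 and 14442 in WT-BLM mice. The second spot read 7442, 14163 and 7058 in WT and 10496, 12681 and 13892 in WT-BLM mice. The spots were close on every array but that of WT mouse 1, where the first was 1.63 times as bright as the second.

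For miR-29b-3p, the first spot read 9102, 10676 and 3365 in the WT and 7506, 8296 and 7980 in the WT-BLM animals. The second spot read 9130, 11519 and 949 in WT and 6210, 6903 and 7701 in WT-BLM mice. WT mouse 3 was the lowest at both spots. On that array the first spot was 3.55 times as bright as the second, and 1.45% of the 275 tested probes had a larger difference between their spots there on the normalized log2 scale.

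For miR-29c-3p, the first spot read 2449, 2746 and 1457 in the WT and 2501, 2719 and 3074 in the WT-BLM animals. The second spot read 254, 2984 and 1457 in WT and 1844, 2318 and 3019 in WT-BLM mice. The outlying value was the second spot of WT mouse 1, which was 9.66 times dimmer than its partner, while the first spot of that mouse was as bright as those of other mice. On that array 1.09% of the tested probes had spots further apart. In the layout of the array the second spots of miR-29a-3p, miR-29b-3p and miR-29c-3p sit in column 24, at rows 77, 81 and 82. In WT mouse 1 those of miR-29a-3p and miR-29c-3p were dim and that of miR-29b-3p, which lies between them, was 1.00 times as bright as its partner.

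Of the 18 pairs of spots, 3 probes on 6 arrays, 2 differed by more than 1 on the normalized log2 scale, namely miR-29c-3p in WT mouse 1 and miR-29b-3p in WT mouse 3. Both were in the control group. The difference was at most 0.71 in the other pairs of the family. Over all 275 tested probes, pairs differing by more than 1 numbered 29, 5 and 16 in WT mice 1, 2 and 3. They numbered 29, 3 and 14 in WT-BLM mice 1, 2 and 3, so that such pairs also occurred outside the family and in WT-BLM lungs. The SD of brightness within a spot was 8.82% in the dim spot of miR-29c-3p and 8.05% in that of miR-29b-3p. These are percentages of the intensity before the median of the empty spots was subtracted, and would be higher for dim spots after it. Each was the highest value of its own probe, although the first spot of miR-29c-3p in WT mouse 3, which matched its partner, reached 8.59% on the same scale.

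**Figure D1:**
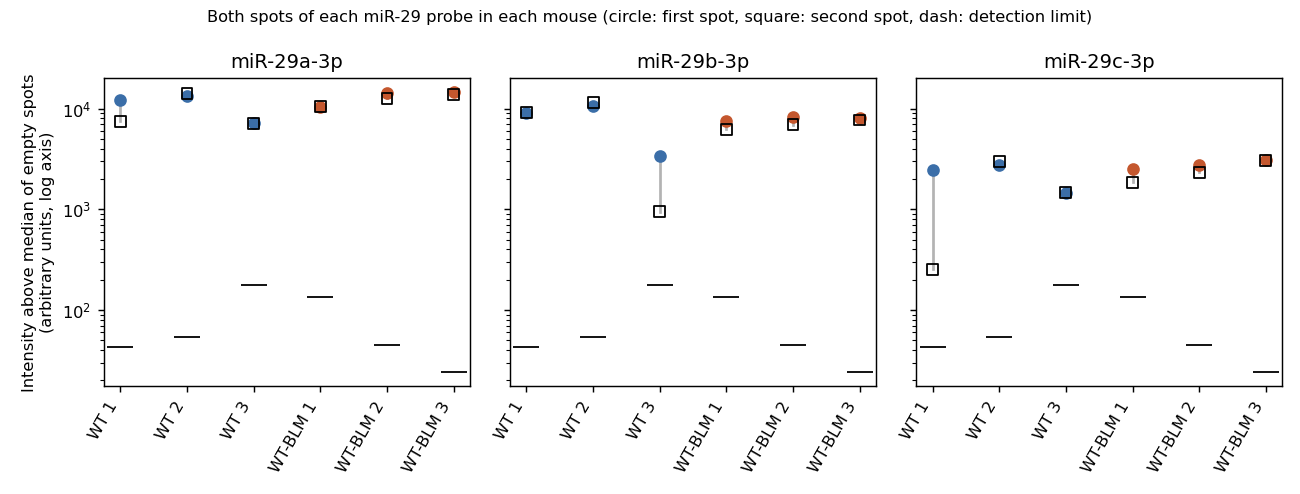
Intensity of both spots of the miR-29a-3p, miR-29b-3p and miR-29c-3p probes in each of the 6 mice, above the median of the empty spots in arbitrary units on a log axis, with a dash at the detection limit of the array. The spots lie furthest apart for miR-29c-3p in WT mouse 1, at 2449 and 254, and for miR-29b-3p in WT mouse 3, at 3365 and 949.

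To compare the groups, the spot intensities were corrected for background by normexp with an offset of 50, brought to log2, quantile normalized between arrays and averaged over both spots. WT-BLM was then compared with WT by limma over all 275 detected probes, with Benjamini-Hochberg adjustment. None of the 3 members had an adjusted p under 0.05, and neither had any other miRNA, so that 0% of the 275 were called. Without adjustment, 5 miRNAs or 1.82% had p under 0.05, and no member was among them. The mean of all 3 members was higher in WT-BLM lungs, where 56.4% of the tested miRNAs were higher. The median log2 fold change of the members was 0.21, beside 0.04 for all 275 miRNAs. A difference between the groups was not detectable for any member at this spread between mice.

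The normalized log2 intensity of miR-29a-3p was 13.29, 13.38 and 13.34 in the WT and 13.59, 13.27 and 13.78 in the WT-BLM animals. WT-BLM mice 1 and 3 were above all WT mice, and WT-BLM mouse 2 was below them. The mean was 13.34 ± 0.05 (SD, n = 3) in WT and 13.55 ± 0.25 in WT-BLM lungs. The log2 fold change was 0.21 (standard error 0.22, limma adjusted p = 1), with a 95% confidence interval of -0.31 to 0.73, or 0.808- to 1.66-fold. WT and WT-BLM mice overlapped (p = 0.40 by exact two-sided permutation). Its spread between mice of a group, 0.18, was smaller than that of 85.5% of the tested miRNAs, and it was the most precisely measured member.

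The normalized log2 intensity of miR-29b-3p was 13.21, 13.08 and 11.35 in the WT and 12.85, 12.23 and 13.02 in the WT-BLM animals. WT mouse 3 was the lowest of all 6 mice and WT mice 1 and 2 were the highest. The mean was 12.55 ± 1.03 (SD, n = 3) in WT and 12.70 ± 0.41 in WT-BLM lungs. The log2 fold change was 0.15 (standard error 0.51, limma adjusted p = 1), with a 95% confidence interval of -1.04 to 1.35, or 0.485- to 2.55-fold. The exact two-sided permutation test gave p = 1. Without WT mouse 3 the log2 fold change of miR-29b-3p was -0.43, with an interval of -1.10 to 0.24, and without WT-BLM mouse 3 it was -0.0099. With the dimmer of 2 discordant spots left out, it was -0.11, with an interval of -0.94 to 0.71. The direction of miR-29b-3p was therefore not settled by these arrays.

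The normalized log2 intensity of miR-29c-3p was 9.82, 10.97 and 11.10 in the WT and 11.48, 10.99 and 11.54 in the WT-BLM animals. WT-BLM mice 1 and 3 were above all WT mice, while WT-BLM mouse 2 lay between WT mice 2 and 3. The mean was 10.63 ± 0.70 (SD, n = 3) in WT and 11.34 ± 0.30 in WT-BLM lungs. The log2 fold change was 0.71 (standard error 0.38, limma adjusted p = 1), with a 95% confidence interval of -0.18 to 1.59, or 0.883- to 3.01-fold. The unadjusted p was 0.10, and 12 of the 275 miRNAs had a smaller one. WT and WT-BLM mice overlapped here too (p = 0.20 by exact two-sided permutation), while 4.73% of the tested miRNAs had groups without overlap.

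The dim spot in WT mouse 1 moved this value. With discordant spots left out, miR-29c-3p stood at 11.36, 10.97 and 11.10 in the WT mice, so that WT mouse 1 went from the lowest to the highest of its group. The mean of WT became 11.14 ± 0.20 (SD, n = 3), beside an unmoved 11.34 ± 0.30 in WT-BLM lungs. The log2 fold change of miR-29c-3p was then 0.19 (standard error 0.23, limma adjusted p = 1), with a 95% confidence interval of -0.36 to 0.74. It was 0.38 from the first spot alone, 1.03 from the second spot alone and 0.33 without WT mouse 1. Without WT mouse 3 it was 0.94, with an unadjusted p of 0.036 and an adjusted p of 0.55 in limma. With arrays weighted by quality it was 0.78, with an interval of 0.0013 to 1.57, an unadjusted p of 0.0497 and an adjusted p of 0.85 in limma.

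**Figure D2:**
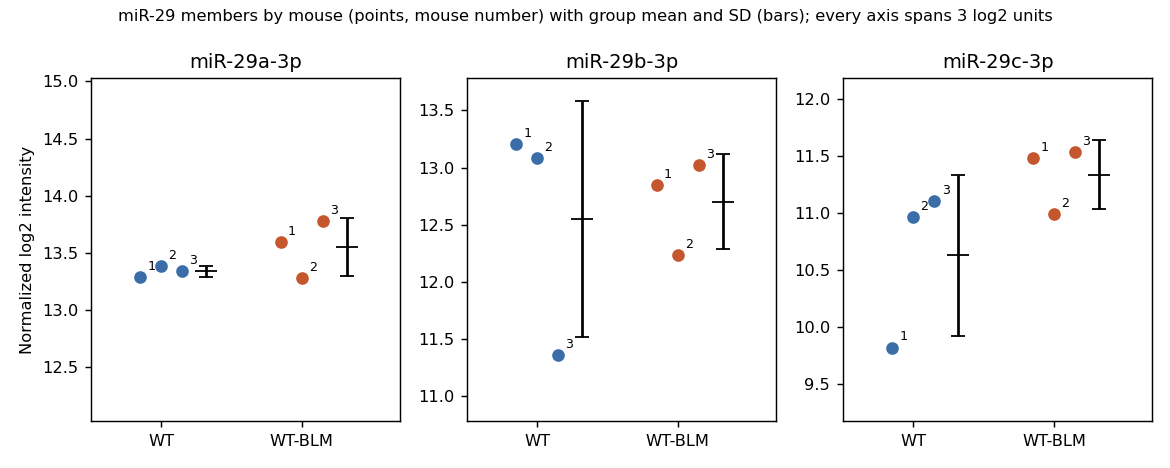
Normalized log2 intensity of each miR-29 member in the 6 mice, as points with the mouse number, and the group mean with SD (n = 3), where the axis of every panel spans 3 log2 units. WT and WT-BLM overlap for all 3 members, and the wide SD of WT comes with 1 low mouse, WT mouse 3 for miR-29b-3p and WT mouse 1 for miR-29c-3p.

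The authors' own normalized intensities, on a linear scale with 1 value per probe, were compared in the same way. For miR-29a-3p they were 9673, 10191 and 10185 in WT and 11458, 9145 and 12724 in WT-BLM mice. For miR-29b-3p they were 8883, 8277 and 4876 in WT and 7319, 5164 and 7173 in WT-BLM mice. For miR-29c-3p they were 2447, 2142 and 1995 in WT and 2317, 1797 and 2930 in WT-BLM mice. In this table WT mouse 1 was the highest WT mouse for miR-29c-3p, as it was here with the dim spot left out. The groups overlapped for every member, with an exact two-sided permutation p of 0.40 for miR-29a-3p, 0.60 for miR-29b-3p and 0.80 for miR-29c-3p. WT-BLM over WT means were 1.11-fold for miR-29a-3p, 0.892-fold for miR-29b-3p and 1.07-fold for miR-29c-3p. Thus miR-29b-3p was lower in WT-BLM lungs in this table and higher in the log2 intensities given above, and neither difference exceeded the spread between mice.

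**Figure D3:**
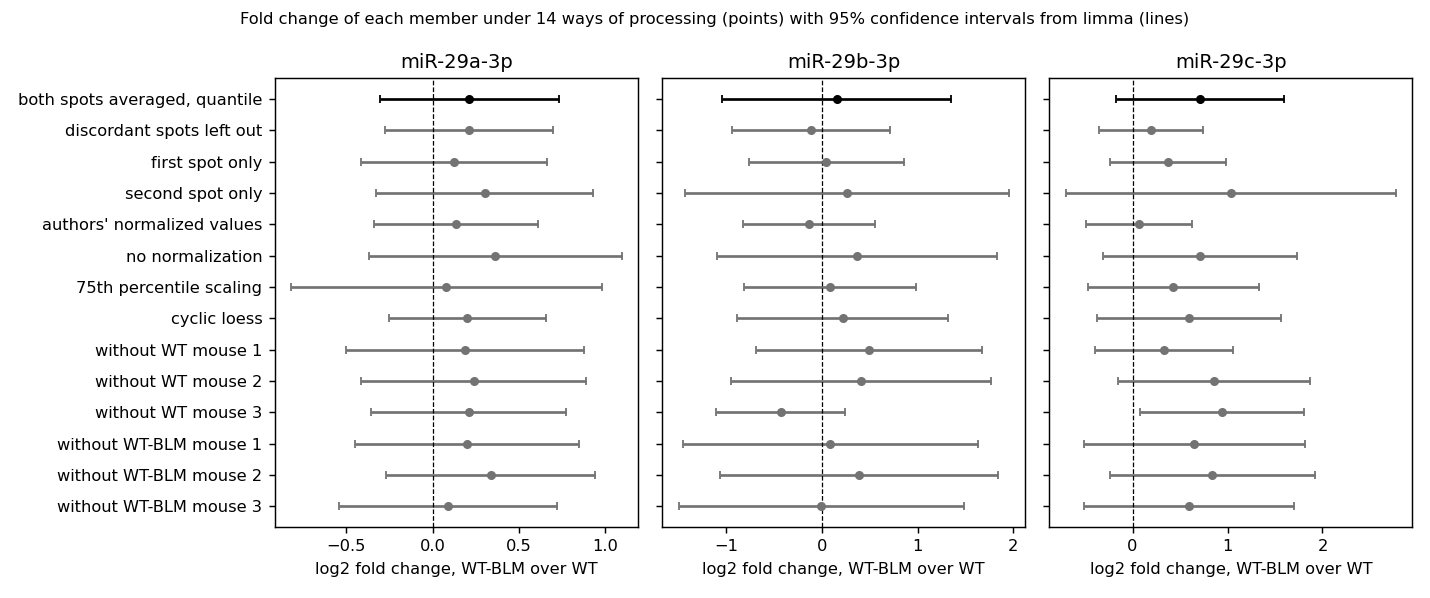
Log2 fold change of each member, WT-BLM over WT, under 14 ways of processing the arrays, as points with 95% confidence intervals from limma. The interval of miR-29c-3p shrinks and moves towards 0 with discordant spots left out and with the authors' normalized values, miR-29b-3p changes sign, and of the plotted intervals that of miR-29c-3p without WT mouse 3 alone leaves out 0.

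Scaling by a single factor per array, in place of quantile normalization, gave other values. When the arrays were scaled to the 75th percentile of the probes detected on all arrays, the median of all 275 miRNAs shifted from 0.04 to -0.22. The log2 fold changes were then 0.08 for miR-29a-3p, 0.08 for miR-29b-3p and 0.43 for miR-29c-3p, each above that median. With the 75th percentile of all miRNA probes the median was 0.13, and the members were at 0.43, 0.43 and 0.78.

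How closely the members varied together from mouse to mouse depended on the 2 dim spots. After each miRNA was centred on its own mean over the 6 mice, the root mean square difference on the log2 scale was 0.46 between miR-29a-3p and miR-29c-3p. It was 0.61 between miR-29a-3p and miR-29b-3p and 0.95 between miR-29b-3p and miR-29c-3p. Of the 272 other tested miRNAs, 188 lay nearer to miR-29a-3p than miR-29c-3p did, 229 lay nearer to it than miR-29b-3p did, and 249 lay nearer to miR-29b-3p than miR-29c-3p did. With discordant spots left out, a setting planned for the fold changes and applied to these distances after seeing the data, the difference between miR-29a-3p and miR-29c-3p was 0.15, and 8 miRNAs lay nearer to miR-29a-3p. It was then 0.38 between miR-29a-3p and miR-29b-3p, with 160 miRNAs nearer to miR-29a-3p, and 0.36 between miR-29b-3p and miR-29c-3p, with 59 nearer to miR-29b-3p. With both spots averaged, the miRNAs whose centred values were nearest to the mean of the 3 members over the 6 mice were miR-126a-5p at 0.16, miR-98-5p at 0.16 and miR-20a-5p at 0.17, against a median of 0.42 over the 272. None of these 3 had an unadjusted p under 0.05 in limma, and their log2 fold changes were 0.22, 0.47 and 0.29. With discordant spots left out, other miRNAs were nearest, named after their values were seen, namely miR-652-3p, miR-674-5p and miR-455-3p, at 0.095, 0.12 and 0.12.

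**Figure D4:**
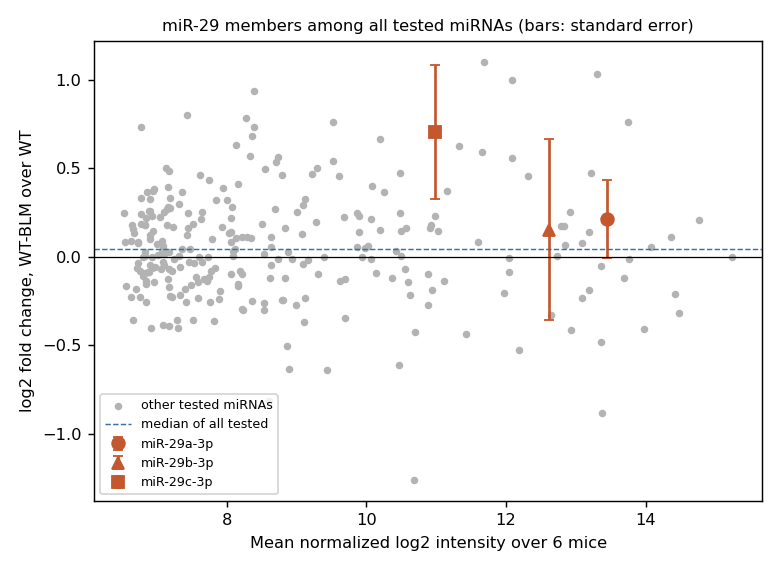
Log2 fold change, WT-BLM over WT, against the mean normalized log2 intensity for the 275 tested miRNAs (grey) with the 3 miR-29 members and their standard errors (orange). The members lie within the scatter of the other miRNAs, with miR-29c-3p at 0.71 and 10 miRNAs above it.

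The other strand of each miR-29 hairpin was measured by 4 further probes, whose products are thought to be mostly degraded when the 3p arm is loaded. They were dim. The probe for miR-29c-5p was detected in 2 of 3 WT and 2 of 3 WT-BLM lungs, at 120, 98.0 and 94.5 above the empty spots in WT and 94.6, 151 and 104 in WT-BLM mice. Its log2 fold change was -0.028 (standard error 0.23, limma adjusted p = 1). The probe for miR-29a-5p was also detected in 2 of 3 mice of each group, at 74.5, 66.1 and 12.6 in WT and 68.7, 87.5 and 59.0 in WT-BLM mice. Its log2 fold change was 0.23 (standard error 0.25, limma adjusted p = 1). In both cases WT mouse 3 and WT-BLM mouse 1, the arrays with noisy empty spots, were the ones without detection. The probe for miR-29b-2-5p read 29.3, 19.2 and 18.8 above the empty spots in WT and 26.3, 60.3 and 26.0 in WT-BLM mice, and was detected in WT-BLM mice 2 and 3 alone. WT mouse 1 was above WT-BLM mouse 3 in signal but below its own limit of 42.9, while the limit in WT-BLM mouse 3 was 24.0. That for miR-29b-1-5p was detected on no array. Thus 2 of the 4 arms of the 5p strand passed the filter, and neither differed between the groups by more than the error.

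**Figure D5:**
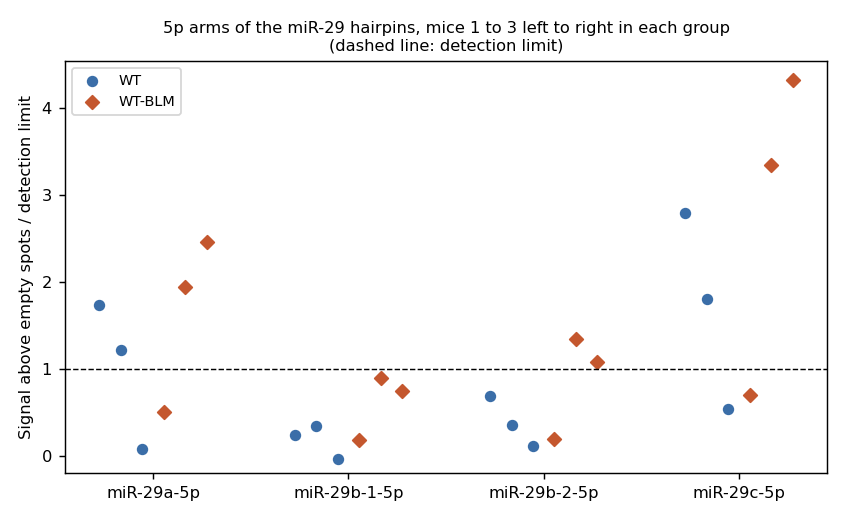
Signal above the empty spots divided by the detection limit of the array for the 4 arms of the 5p strand in WT (circles) and WT-BLM mice (diamonds), with mice 1 to 3 from left to right. The arms of Mir29a and Mir29c pass the limit, drawn at 1, in 2 of 3 mice of each group, that of Mir29b-2 passes in 2 WT-BLM mice, and that of Mir29b-1 passes in none.

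The family was set beside a list of 17 miRNAs that are described as lowering matrix or profibrotic genes, the 3 members included. Of these 16 were tested, and none had an adjusted or an unadjusted p under 0.05. Their mean was higher in WT-BLM lungs for 5 and lower for 10, with a median log2 fold change of -0.08 over the 16. The means of the remaining one, miR-26a-5p, were equal to within 1e-09, which carries no information on its change, since it had the highest mean of all tested miRNAs and quantile normalization gives the top ranks of every array the same values. Over all 275 tested miRNAs, 56.4% were higher and the median was 0.04. On the list the values ran from -0.82 (standard error 0.73) for miR-133b-3p, a miRNA of striated muscle, to 0.71 (standard error 0.38) for miR-29c-3p. The latter was 0.19 with discordant spots left out. The 3 members were among the 5 that were higher. A second list held 14 miRNAs described as raised in fibrosis or promoting it. Of these 11 were tested, 5 higher and 6 lower, with a median of -0.05. No adjusted p was under 0.05. An unadjusted p under 0.05, which 1.82% of all tested miRNAs had, was found for 1, miR-34a-5p, a miRNA induced by p53, with a log2 fold change of 0.57 (standard error 0.23, adjusted p = 1).

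The tissue of origin was checked with miRNAs that mark cell types. The 5 epithelial, 5 mesenchymal and 4 leukocyte markers were detected on all 6 arrays, and both endothelial markers on at least 3. The liver marker miR-122-5p and the neuronal markers miR-124-3p and miR-9-5p were each detected on fewer than 3 arrays. The summed level of the endothelial markers lay between 7120 and 16603 in WT and between 16164 and 21746 in WT-BLM lungs, in normalized linear intensity. It was mostly miR-126a-3p, at a mean log2 intensity of 13.36 in WT lungs, against 6.73 for miR-126a-5p. The mesenchymal sum lay between 27206 and 34797 in WT and between 21716 and 28671 in WT-BLM lungs. Its markers did not move together. The log2 fold change was -0.88 for miR-143-3p, -0.14 for miR-214-3p and -0.09 for miR-199a-3p. It was -0.05 for miR-145a-5p and 0.40 for miR-199a-5p. The sum of the striated muscle markers lay between 1138 and 11129 in WT and between 1441 and 2087 in WT-BLM lungs, with 3 of 4 detected on at least 3 arrays. Blood was also present, with 3 of 3 erythroid markers detected on at least 3 arrays. Their sum lay between 13297 and 20558 in WT and between 15713 and 20432 in WT-BLM lungs. Each of these sums overlapped between the groups, and their part in the miR-29 values was not tested. In whole lung RNA, a change in the share of a cell type and a change in the RNA per cell cannot be told apart.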

How the data were processed

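MiRNA arrays of lung RNA from 3 WT and 3 WT-BLM mice were analysed, with groups taken from the sample labels. Per the labels, an array service tailed the RNA, ligated a tag, stained it with a dye and hybridized it to a microfluidic chip. The authors deposited the median intensity and the within-spot SD of intensity of 5022 spots per array before background subtraction, and a linear table of normalized intensities whose method is not given in the sources used here. In R 4.3.3 with limma 3.58.1, background was corrected by normexp (offset 50, all spots), control spots were removed, and the log2 values of the 3926 miRNA spots were quantile normalized between arrays and averaged per probe. Those probes that 3 or more arrays detected entered lmFit and eBayes. An offset of 50 shrinks fold changes of dim probes. The steps were run on simulated data, in which both spots of a probe had the same signal plus noise from empty spots. All probes there had the same spread between mice. Bright probes with discordant spots were therefore not simulated. The members and lists were chosen with earlier results of these data known. Besides the 3 members, their 5p arms, targets with their seed, the 3 miRNAs nearest in centred values and list members with an unadjusted p under 0.05 were to be named. Mice sharing a number were taken as unpaired. Their deviations from the group means correlated at 0.16, 0.028 and 0.073. Mice with unlike numbers were not compared in this way, so these values cannot decide whether the numbers mark a pairing. No batch was tested, because neither slide nor scan is given. Nothing in the labels gives the sex of a mouse or pools mice. Settings were varied in 23 ways.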

Additional observations from a re-analysis of the deposited data

How the results depend on the processing

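In none of 23 alternatives, the methods' t-test among them, did any miRNA pass an adjusted p of 0.05. Of the 23, 5 change the filter or the test and cannot move a fold change. In the other 18, miR-29a-3p and miR-29c-3p kept their direction, between 0.08 and 0.43 and between 0.07 and 1.03, as did the median of the members, between 0.07 and 0.43. miR-29b-3p reversed from 0.15 to -0.11 with discordant spots left out, to -0.28 with array weights and to -0.13 on the authors' normalized values. With each mouse left out in turn, miR-29a-3p lay between 0.09 and 0.34, miR-29b-3p between -0.43 and 0.49, miR-29c-3p between 0.33 and 0.94 and the median between 0.09 and 0.41. The count with an unadjusted p under 0.05, which was 5, moved to 46 without a filter on dim probes, where 1963 were tested, and to 1 where only the 116 probes that every array detected were tested. It was 8 with scaling to the 75th percentile of probes detected on all arrays, with cyclic loess and from the first spot only, 2 with the 75th percentile of all probes and from the second spot only, 14 with array weights and 9 with the methods' t-test paired by mouse number. The cause was not tested. Without single mice it lay between 0 and 20, at 20 without WT mouse 3, 10 without WT mouse 1, 3 without WT-BLM mouse 1 and 0 without WT-BLM mouse 3. With the replicate block, which leaves the fold changes of 0.21, 0.15 and 0.71 as they are by construction, the count was 8. A block for slide or scan was not run, since neither is given.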
